A study of Homo sapiens with 6 samples.

Results

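Aminoacyl-tRNA synthetases join each amino acid to its tRNA, the step that reads the genetic code into protein. Human cells keep separate enzymes for the cytosol and for mitochondria, all encoded in the nucleus and named with the letter of their amino acid, with a final 2 for most mitochondrial enzymes. The 36 genes described here were taken by symbol from the 58735 gene rows of the deposited table; the rule uses no measured value, but the family was proposed with earlier results of these data known. They are 20 cytosolic synthetases and 16 mitochondrial ones, whose symbols end in 2. GARS and KARS, counted as cytosolic by their symbols, also supply the mitochondrial enzymes for glycine and lysine.

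RNA-seq was made from HaCat (HaCaT) cells, an immortalised human keratinocyte line, in 6 libraries. The 3 UVB libraries came from dishes given ultraviolet B light at a dose labelled 50 mJ, with no area stated, and kept for a further 24 h. The 3 control libraries came from dishes of the same cells. Their treatment was labelled only as control, and their time was listed as 24 h too. Whether replicate dishes were grown independently is not stated, so p-values reflect the spread between these libraries, which may be technical, within 1 cell line.

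Many cytosolic synthetase genes are known targets of ATF4, the transcription factor that is translated when kinases of the initiation factor eIF2 sense stress or a shortage of amino acids. ATF4 acts with C/EBP proteins on a DNA element called the CARE, for C/EBP-ATF response element. Tryptophanyl-tRNA synthetase, WARS, is known as a gene induced by interferon gamma. Of the cytosolic enzymes, 8 sit together in the multisynthetase complex, held by the scaffold proteins AIMP1, AIMP2 and EEF1E1.

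The libraries held 72517243, 88484020 and 79331735 assigned reads after UVB and 69373448, 66272443 and 81303733 in controls, taking each recovered unit as a read. Across genes, the correlation of libraries was at least 0.983 within UVB and 0.981 within control, and at most 0.968 between the groups. Keratinocyte markers summed to 863 to 938 FPKM after UVB and 1062 to 1255 FPKM in controls. Of the 16 markers 4 were higher (KRT6A, KRT14, LAMB3 and KRT16), against 17.0% of all genes tested. Another 5 were lower (KRT5, SFN, ITGA6, ITGB4 and DSP), against 11.0%. The largest change among them was in KRT5, a basal keratin, with 122 ± 36.6 FPKM after UVB and 287 ± 75.2 FPKM in controls (SD, n = 3 each), while KRT14, its partner keratin, was at a low level, with 1.73 ± 0.149 FPKM after UVB and 1.02 ± 0.165 FPKM in controls (SD, n = 3 each). Summed markers of melanocytes reached 7.56 to 8.09 FPKM after UVB and 4.40 to 4.79 FPKM in controls, those of fibroblasts 1.80 to 1.97 FPKM after UVB and 0.770 to 1.06 FPKM in controls. Leukocyte markers summed to 18.8 to 26.4 FPKM after UVB and 10.7 to 12.1 FPKM in controls, and endothelial ones to 5.91 to 8.96 FPKM after UVB and 4.26 to 5.21 FPKM in controls. Of these 27 markers 6 passed the filter described below and were tested, and 3 of the 6 (MITF, COL1A1 and CD68) were higher, against 17.0% of all genes tested; TYR, CD3E, LYZ, KDR and ERG were listed at 0 in all 6 libraries. The part of these shifts in the results was not tested, and in bulk RNA fewer cells with a transcript and less of it per cell cannot be told apart.

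Levels are given in FPKM, read numbers scaled by gene length and by the assigned reads of the library, so that genes can be compared per length. Fold changes are UVB over control on log2(FPKM + 1), which understates changes of low genes, and a gene was called at a limma adjusted p under 0.05 over the 14921 genes that averaged 0.5 FPKM or more. All 36 synthetase genes passed that filter. Of them 17 were higher after UVB, against 17.0% of all genes tested, and 3 were lower, against 11.0%. The median log2 fold change was 0.17 over the 36 genes and 0.042 over all genes tested. The 2530 higher and 1637 lower genes of the whole table became 1932 and 1954 when each library was divided by a median-ratio size factor, and 13 of the 36 synthetase genes were then higher and 3 lower.

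Most of the higher genes were cytosolic. Of 20 cytosolic genes 14 were higher by limma, 11 by edgeR and 12 by DESeq2, and none was lower by any of them. The median log2 fold change was 0.25 in the limma fit. At an unadjusted limma p under 0.05, 15 were higher and 0 lower. The share of all genes at that looser threshold is not given here, and the 17.0% and 11.0% do not apply to it. Of 16 mitochondrial genes 3 were higher and 3 lower, against 17.0% and 11.0% of all genes tested, with a median of -0.029. Added over the 20 cytosolic genes, the level was 773, 780 and 786 FPKM in the UVB libraries and 606, 600 and 615 FPKM in the control libraries. Over the 16 mitochondrial genes the sum was 204, 208.1 and 200.6 FPKM after UVB and 208, 205.5 and 205.9 FPKM in controls, and the groups overlapped. The difference between the compartments was described by these counts and not tested.

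**Figure D1:**
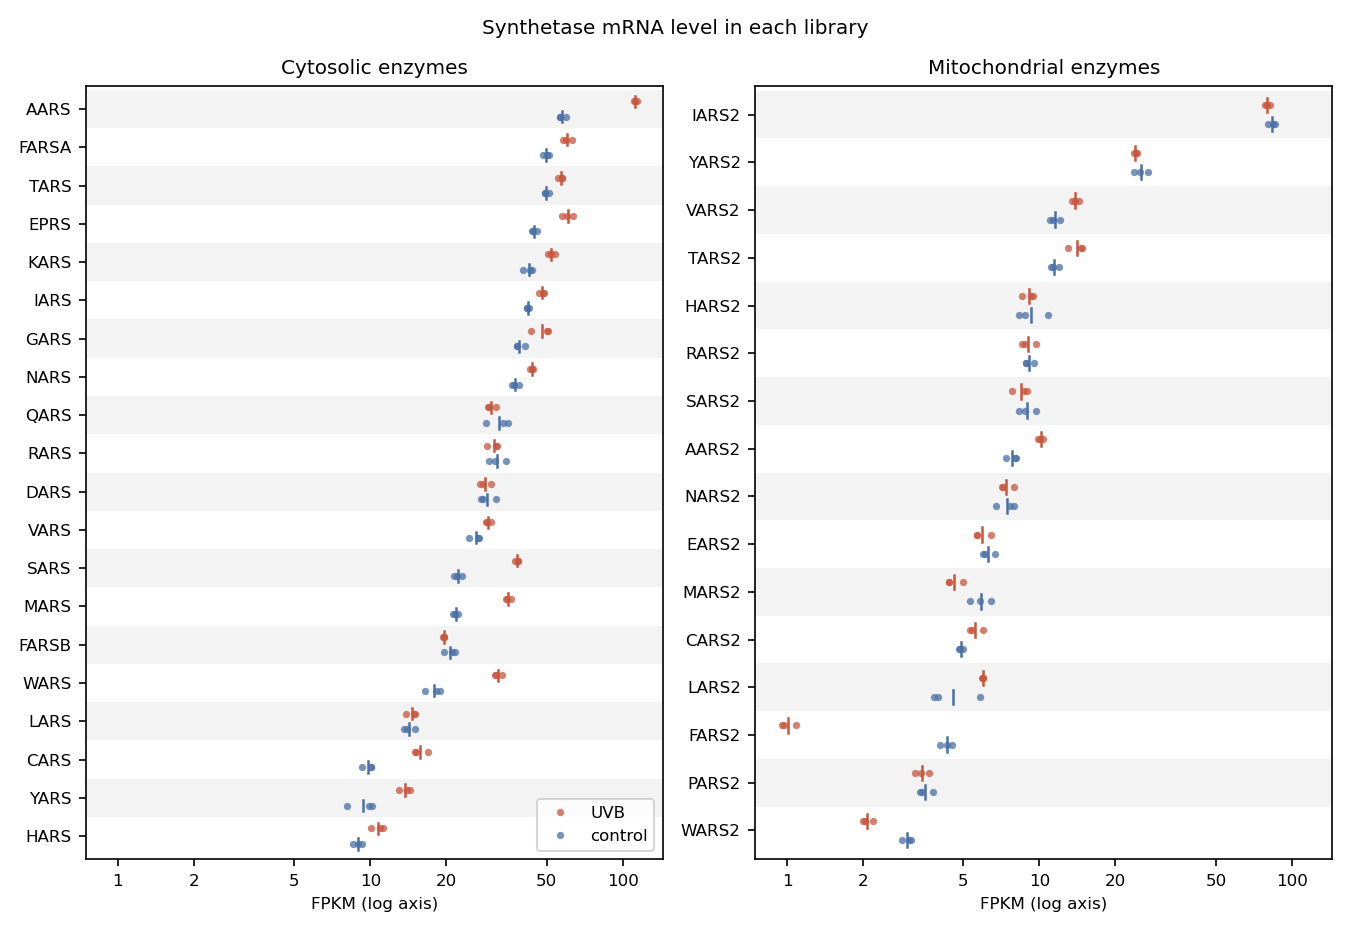
FPKM of each synthetase gene in each of the 6 libraries on a log axis, with UVB (red) above control (blue) in each row, vertical ticks at group means, and genes ordered by their control level. AARS stands at 111.2 to 113.5 FPKM after UVB against 56.2 to 59.8 in controls, and FARS2 at 0.952 to 1.09 against 4.05 to 4.52.

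**Figure D2:**
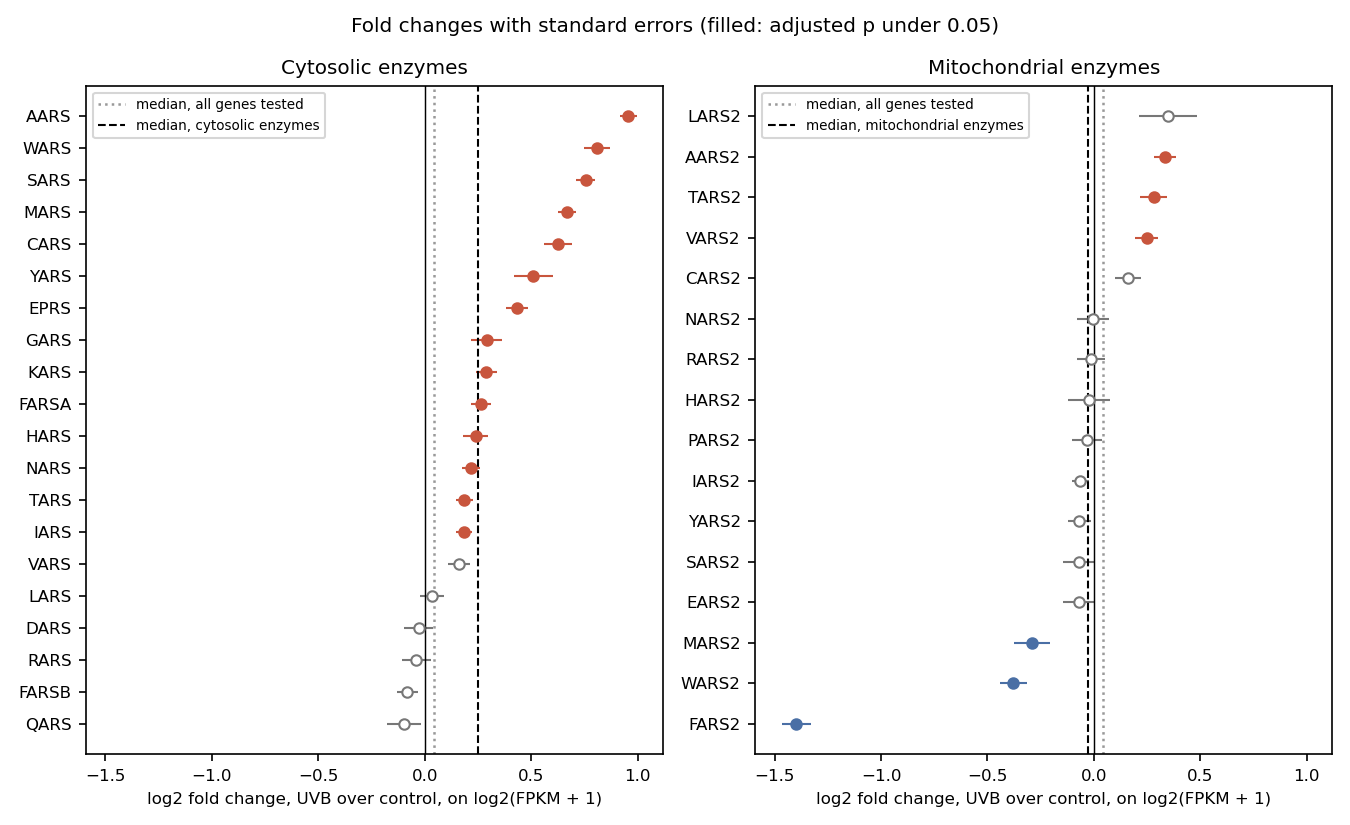
Log2 fold change, UVB over control, with its standard error for each synthetase gene; filled points passed an adjusted p of 0.05, red for higher and blue for lower. The dashed lines mark the group medians of 0.25 and -0.029 and the dotted line the median of all genes tested, 0.042.

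Among cytosolic enzymes 6 genes rose by at least 0.5 log2 units, with a median of 0.71. AARS, which charges alanine tRNA, had 113.5, 112.3 and 111.2 FPKM after UVB and 56.4, 59.8 and 56.2 FPKM in controls, so that the groups stood far apart. This was a log2 fold change of 0.96 ± 0.040 (SE, limma adjusted p = 7.06e-05), and AARS was the highest of the 20 genes in both groups. WARS had 31.3, 31.5 and 33.3 FPKM after UVB and 16.5, 18.2 and 18.9 FPKM in controls, a log2 fold change of 0.81 ± 0.061 (SE, adjusted p = 0.000403). SARS, the serine enzyme, which also makes the seryl-tRNA from which selenocysteine is formed, had 37.4, 38.5 and 38.6 FPKM after UVB and 22.0, 23.2 and 21.5 FPKM in controls. The log2 fold change of SARS was 0.76 ± 0.044 (SE, adjusted p = 0.000191). In each of these 3 genes the lowest UVB library lay well above the highest control library.

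MARS, the methionine enzyme, which also charges the initiator tRNA, had 34.5, 36.2 and 34.8 FPKM after UVB and 21.6, 22.4 and 21.3 FPKM in controls (log2 fold change 0.67 ± 0.042 SE, adjusted p = 0.000239). CARS, the cysteine enzyme, had 15.2, 15.0 and 16.9 FPKM after UVB and 10.1, 10.1 and 9.25 FPKM in controls (0.63 ± 0.064 SE, adjusted p = 0.00119). YARS, the tyrosine enzyme, had 13.9, 13.0 and 14.4 FPKM after UVB and 9.91, 10.2 and 8.07 FPKM in controls (0.51 ± 0.092 SE, adjusted p = 0.00938). No UVB library of these 3 genes overlapped the controls, and YARS varied most among its controls. Of the exon bases of MARS, 13.3% overlap other genes, among them DDIT3 on the opposite strand. A strand setting of the counting is not given in the sources used here. All reads assigned to DDIT3 came to 15.3% of those assigned to MARS after UVB and 7.96% in controls, and DDIT3 itself, the stress factor CHOP, rose to 28.6 ± 6.15 FPKM after UVB, against 9.33 ± 0.845 FPKM in controls (SD, n = 3 each).

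Smaller increases were called in 8 further cytosolic genes. EPRS, the joint enzyme for glutamate and proline, was the largest of them, with 57.3, 63.6 and 60.3 FPKM after UVB and 43.8, 44.0 and 45.7 FPKM in controls (log2 fold change 0.43 ± 0.050 SE, adjusted p = 0.00181). KARS, the lysine enzyme, had 54.1, 51.8 and 50.5 FPKM after UVB and 43.9, 40.4 and 43.0 FPKM in controls, a log2 fold change of 0.29 (adjusted p = 0.00736). FARSA, the alpha subunit of the phenylalanine enzyme, had 58.2, 59.5 and 62.7 FPKM after UVB and 51.1, 50.3 and 48.1 FPKM in controls, a log2 fold change of 0.27 (adjusted p = 0.00822). These 3 genes kept the call under each alternative that was run. FARSB, which encodes the beta subunit of the same enzyme, was not called: it had 19.4, 19.6 and 19.6 FPKM after UVB and 21.1, 19.6 and 21.6 FPKM in controls, and its groups overlapped.

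NARS, the asparagine enzyme, had 43.0, 44.3 and 43.7 FPKM after UVB and 36.4, 37.1 and 39.0 FPKM in controls, a log2 fold change of 0.22 (adjusted p = 0.0124), and it too kept its call throughout. GARS, the glycine enzyme, had 50.3, 43.2 and 50.7 FPKM after UVB and 38.0, 38.1 and 40.8 FPKM in controls, a log2 fold change of 0.29 (adjusted p = 0.0279). HARS, the histidine enzyme, had 11.2, 10.9 and 10.1 FPKM after UVB and 9.26, 8.58 and 8.97 FPKM in controls, a log2 fold change of 0.24 (adjusted p = 0.0266). The second UVB library of GARS and the third of HARS came nearest to their controls, without overlap. TARS, the threonine enzyme, had 55.3, 57.6 and 57.5 FPKM after UVB and 49.3, 49.2 and 50.9 FPKM in controls, a log2 fold change of 0.19 (adjusted p = 0.0155). IARS, the isoleucine enzyme, had 46.6, 49.0 and 48.3 FPKM after UVB and 41.8, 41.9 and 42.7 FPKM in controls, a log2 fold change of 0.18 (adjusted p = 0.0157).

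The calls of GARS, HARS, TARS and IARS were near the threshold, and each was lost with size factors, with adjusted p of 0.0614, 0.0626, 0.0555 and 0.0536. Leaving out 1 library also ended them: GARS without UVB replicate 1 or 3 or control replicate 1 or 2 (adjusted p up to 0.0875), HARS without UVB replicate 1 or 2 or control replicate 2 or 3 (up to 0.0835), TARS without UVB replicate 2 or 3 or control replicate 1 (up to 0.0608), and IARS without the same 3 libraries as TARS (up to 0.06). The log2 fold change stayed above 0 in each of these fits.

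The other 6 cytosolic genes were not called. VARS, the valine enzyme, came closest, with 29.02, 28.8 and 29.98 FPKM after UVB and 26.8, 27.0 and 24.6 FPKM in controls; the groups did not overlap, and the log2 fold change of 0.16 had an adjusted p of 0.0615. LARS, DARS, RARS, FARSB and QARS had log2 fold changes of 0.034, -0.029, -0.040, -0.083 and -0.099, and their groups overlapped. The sign of LARS was negative, at -0.0165 to -0.0378, under size factors, quantile normalization, edgeR and DESeq2. LARS, DARS, RARS and QARS charge leucine, aspartate, arginine and glutamine, and all belong to the multisynthetase complex.

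Of the 8 enzymes of that complex (DARS, EPRS, IARS, KARS, LARS, MARS, QARS and RARS), 4 were higher, with a median log2 fold change of 0.11. Of the 12 cytosolic genes outside it 10 were higher, with a median of 0.28. Synthetases fall into 2 classes by the fold of the catalytic domain. Leaving out EPRS, which holds both, 5 of 9 cytosolic genes of class I and 8 of 10 of class II were higher. Of all genes tested 17.0% were higher. This grouping was drawn up after the values were seen and describes them. The counts by complex and by class include GARS, HARS, TARS and IARS, whose calls were lost with size factors. TARSL2, a synthetase-like gene outside the 36, was listed with the scaffold and editing genes and was not called (log2 fold change -0.19). Of the 7 genes of that list 1 was higher and 2 lower, against 17.0% and 11.0% of all genes tested. AIMP2 had 43.4 ± 1.70 FPKM after UVB and 34.1 ± 3.06 FPKM in controls (SD, n = 3 each), a log2 fold change of 0.34 (limma adjusted p = 0.0158). EEF1E1, also called AIMP3, fell by 0.22 log2 units to 14.4 ± 0.543 FPKM, against 16.9 ± 1.18 FPKM in controls, and DTD1, which removes D-amino acids from tRNA, fell by 0.48 log2 units to 6.89 ± 0.277 FPKM, against 9.98 ± 0.510 FPKM in controls (SD, n = 3 each).

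Promoters from RefSeq (GRCh38.p14, 250 bases before to 50 after each start) matched 30 of the 36 genes in 39 windows; DARS, LARS, VARS, YARS, AARS2 and VARS2 had no match. The CARE core TGATGNAA was searched on both strands, where N is any base. It was found in 8 of the 30 genes, 7 of 16 cytosolic and 1 of 14 mitochondrial, and in 8 of the 39 windows, against 3.62% of all 35116 windows and 2.69% of those of protein-coding genes. All 7 cytosolic genes were among the 13 called higher with a window, and none was among the 3 not called with a window. With only 3 genes not called (FARSB, QARS and RARS), this split cannot show whether the match goes with the call. It also depends on the normalization. Of the 7, GARS, IARS and TARS lost their call with size factors (limma adjusted p of 0.0614, 0.0536 and 0.0555). The matches are shown because they fall in AARS, MARS and CARS, 3 of the 6 genes with the largest increases, and because the same 8 letters, read on either strand, recur in 6 of the 7 cytosolic genes. They are printed 5′ to 3′ on the strand of the gene, with the match in capitals:
AARS, chr16:70289664-70289715, minus strand: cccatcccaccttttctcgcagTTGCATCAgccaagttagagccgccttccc
MARS, chr12:57488042-57488093, plus strand: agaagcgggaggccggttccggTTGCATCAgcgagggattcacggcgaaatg
CARS, chr11:3057396-3057447, minus strand: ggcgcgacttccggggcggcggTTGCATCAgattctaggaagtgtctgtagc
IARS, chr9:92293681-92293732, minus strand: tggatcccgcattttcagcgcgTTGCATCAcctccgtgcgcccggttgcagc
TARS, chr5:33440945-33440994, plus strand: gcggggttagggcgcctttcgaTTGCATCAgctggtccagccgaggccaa
NARS, chr18:57621807-57621844, minus strand: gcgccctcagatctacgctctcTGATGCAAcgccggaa
GARS, chr7:30594823-30594874, plus strand: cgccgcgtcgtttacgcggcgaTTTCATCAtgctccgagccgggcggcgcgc
YARS2, chr12:32756065-32756116, minus strand: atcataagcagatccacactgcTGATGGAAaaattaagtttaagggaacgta
The match began 187 bases before the start in AARS, 13 before in IARS, 4 before in MARS, 2 before in CARS and 33 before in GARS, and at transcribed base 3 in TARS and 15 in NARS. In YARS2, which was not called, it began 197 bases before the start. WARS, SARS, EPRS, KARS, FARSA and HARS were called higher with no match in these windows, which says only that the letters are not there.

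Elements of the interferon response were searched in the same way. The letters TTCNNNGAA, the core of the interferon gamma activated site (GAS), were in 5 of the 30 genes (CARS, TARS, WARS, PARS2 and WARS2). They were in 7 of the 39 windows, against 7.66% of all windows and 6.79% of those of protein-coding genes. The 2 windows of WARS2 overlap and hold the same site. The letters GAAANNGAA, found in elements bound by interferon regulatory factors, were in 4 of the 30 genes (GARS, IARS, WARS and EARS2). They were in 5 of the 39 windows, against 8.11% of all windows and 7.09% of those of protein-coding genes. The 2 windows of EARS2 likewise share 1 site. No matches of different motifs overlapped. WARS had both in 1 window, shown because it is the synthetase known for its interferon response:
WARS, interferon regulatory factor element, chr14:100375372-100375424, minus strand: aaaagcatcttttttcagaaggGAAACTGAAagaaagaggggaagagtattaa
WARS, GAS, chr14:100375459-100375511, minus strand: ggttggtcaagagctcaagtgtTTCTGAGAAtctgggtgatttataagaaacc
They began 55 and 142 bases before the start. The mitochondrial tryptophan gene WARS2 also held a GAS match and was lower after UVB. Of 11 tested genes of the response to interferon gamma and IRF1, 7 were higher, against 17.0% of all genes tested, with a median log2 fold change of 0.32. TAP1, CXCL10 and GBP1 rose by 0.75, 0.59 and 0.58 log2 units, whereas IRF1 itself had a log2 fold change of 0.076 and was not called. CXCL10 was at a low level, 0.820 FPKM after UVB and 0.207 FPKM in controls, where the added constant understates the change. It rested on 60 to 89 reads per library after UVB and 6 to 24 in controls.

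The 16 mitochondrial enzymes were called in both directions. AARS2, the alanine enzyme, had 9.89, 10.3 and 10.1 FPKM after UVB and 8.05, 7.99 and 7.38 FPKM in controls, a log2 fold change of 0.33 ± 0.053 (SE, limma adjusted p = 0.00595). TARS2, the threonine enzyme, had 14.7, 14.7 and 13.0 FPKM after UVB and 11.1, 11.9 and 11.4 FPKM in controls (0.28 ± 0.063 SE, adjusted p = 0.0199). VARS2, the valine enzyme, had 13.4, 14.3 and 13.8 FPKM after UVB and 11.4, 12.1 and 11.0 FPKM in controls (0.25 ± 0.053 SE, adjusted p = 0.0171). The groups of all 3 genes were apart, by little in TARS2. AARS2 kept its call in each alternative, while TARS2 and VARS2 lost theirs under quantile normalization (adjusted p of 0.0657 and 0.0601). TARS2 also lost it without UVB replicate 1 or 2 or control replicate 1 or 3 (up to 0.0671), and VARS2 without UVB replicate 2 or 3 or control replicate 1 (up to 0.0577). Of the exon bases of VARS2, 22.0% overlap GTF2H4 on the same strand, whose level was 6.40 FPKM after UVB and 6.51 FPKM in controls.

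FARS2, the mitochondrial phenylalanine enzyme, showed the largest change of the 36 genes. It had 1.09, 0.975 and 0.952 FPKM after UVB and 4.52, 4.05 and 4.29 FPKM in controls, so that the UVB mean was 0.234 of the control mean. The log2 fold change was -1.40 ± 0.069 (SE, adjusted p = 0.000125), and on recovered reads, with no added constant, it was -2.15 in both edgeR and DESeq2. Of all 14921 genes tested, 46 had a log2 fold change at or below that of FARS2. WARS2, the tryptophan enzyme, had 2.19, 2.04 and 2.00 FPKM after UVB and 3.04, 2.86 and 3.09 FPKM in controls (-0.38 ± 0.063 SE, adjusted p = 0.00715). MARS2, the methionine enzyme, had 4.39, 4.40 and 4.99 FPKM after UVB and 5.81, 6.45 and 5.28 FPKM in controls (-0.29 ± 0.084 SE, adjusted p = 0.0457). MARS2 lost its call without any 1 library other than control replicate 3 (adjusted p up to 0.124). The call was also lost in the fit with no filter on low values (0.096) and with the replicate number as a block (0.108).

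FARS2 is also by far the longest of the genes, with 12 merged exons over 568.1 kb (chr6:5261044-5829192, GRCh38). The next is LARS2 with 160.9 kb. Over protein-coding genes the fold change went with span. The 274 that span over 300 kb had a median log2 fold change of -0.48, with 62.8% lower and 5.84% higher, and 26 of them lay at or below FARS2. In the 100 to 300 kb range, which holds LARS2, NARS2 and WARS2, the median of 1709 genes was 0.0089 and 17.2% were lower. In the shorter ranges the medians were 0.063 to 0.091, and the cytosolic genes, none over 100 kb, lie there. MARS2, with 1 exon over 3.02 kb, was lower as well. The part of gene span in these results was not tested.

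**Figure D3:**
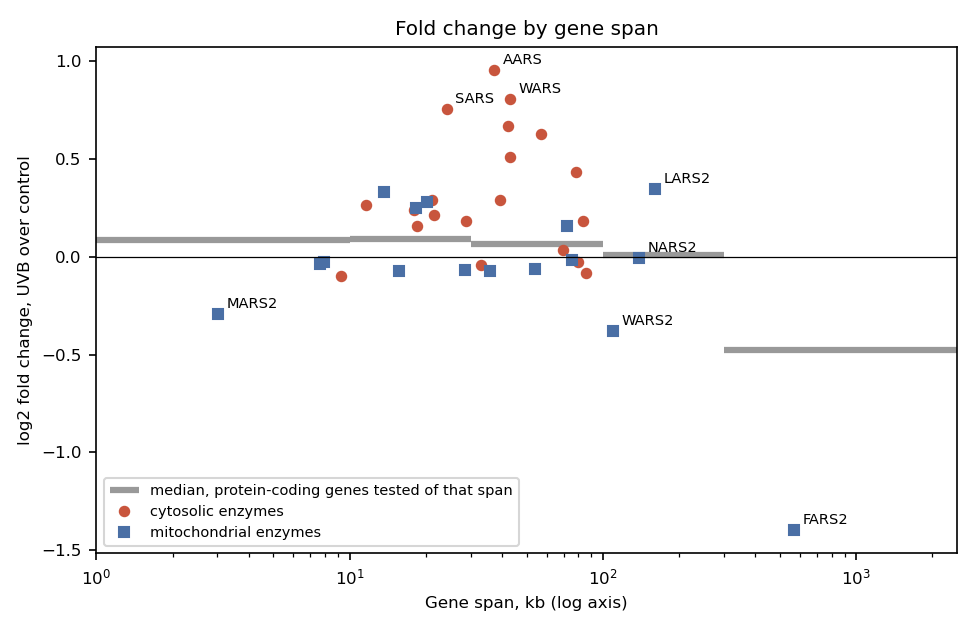
Log2 fold change, UVB over control, against gene span in kb on a log axis, for cytosolic (red circles) and mitochondrial (blue squares) synthetase genes, with grey bars at the median of protein-coding genes in each span range. FARS2, at 568.1 kb and -1.40, lies in the range whose median is -0.48.

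The remaining 10 mitochondrial genes were not called. LARS2, the leucine enzyme, had 5.97, 6.001 and 5.91 FPKM after UVB and 3.98, 5.83 and 3.81 FPKM in controls. Control replicate 2 stood near the UVB level, and without it the log2 fold change was 0.51 with an adjusted p of 0.00531, against 0.35 and 0.108 with all libraries. CARS2, the cysteine enzyme, had 5.40, 5.96 and 5.31 FPKM after UVB and 4.97, 4.84 and 4.80 FPKM in controls; the groups did not overlap (0.16, adjusted p = 0.0992). The groups of the other 8 genes overlapped, with log2 fold changes of -0.0045 (NARS2), -0.014 (RARS2), -0.025 (HARS2), -0.034 (PARS2), -0.063 (IARS2), -0.068 (YARS2), -0.070 (SARS2) and -0.072 (EARS2).

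The levels of mitochondrial genes were lower in general than those of cytosolic ones, with a median of 7.92 FPKM after UVB and 7.61 FPKM in controls, against a cytosolic median of 33.6 FPKM after UVB and 30.4 FPKM in controls. IARS2 was the exception, with 79.6, 81.6 and 78.2 FPKM after UVB and 85.5, 80.4 and 84.4 FPKM in controls, second only to AARS after UVB and above every other synthetase gene in controls. YARS2 followed among the mitochondrial genes, with 24.2, 23.7 and 24.1 FPKM after UVB and 27.0, 23.8 and 25.0 FPKM in controls. FARS2 was the lowest of the 36 genes after UVB, and WARS2 the lowest in controls.

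For 13 amino acids 1 gene serves the cytosol and 1 the mitochondria. In 9 of these pairs the cytosolic gene had the higher log2 fold change. The widest gap was for tryptophan, 0.81 in WARS and -0.38 in WARS2, followed by methionine, 0.67 in MARS and -0.29 in MARS2, each with its cytosolic gene called higher and its mitochondrial gene called lower. For serine the values were 0.76 in SARS and -0.070 in SARS2, where SARS2 had 8.66, 7.79 and 8.93 FPKM after UVB and 8.78, 9.71 and 8.30 FPKM in controls. SARS2 counts carry doubt, since 57.0% of its exon bases overlap other genes; of these AC011455.2 was listed at 0, and MRPS12, on the opposite strand, had 32.7 FPKM after UVB and 28.4 FPKM in controls. For alanine both genes rose, AARS by 0.96 and AARS2 by 0.33.

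For histidine HARS rose while HARS2 had 9.24, 9.46 and 8.51 FPKM after UVB and 8.32, 8.73 and 10.8 FPKM in controls, with overlapping groups. These 2 genes lie head to head on chromosome 5, with overlapping 5′ ends. For asparagine NARS2 had 7.16, 7.90 and 7.10 FPKM after UVB and 6.71, 7.91 and 7.64 FPKM in controls. For leucine, arginine, threonine and valine the mitochondrial gene had the higher log2 fold change, by 0.31, 0.026, 0.095 and 0.089. For phenylalanine, where the cytosolic enzyme has 2 subunits, FARSA was higher and FARS2 lower, and FARSA was 59.8 times the level of FARS2 after UVB and 11.6 times in controls. For glutamate and proline EPRS rose by 0.43 while EARS2 and PARS2 were not called. The median ratio of cytosolic to mitochondrial level over the 13 pairs was 3.43 after UVB and 3.13 in controls. The difference within a pair was not tested.

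**Figure D4:**
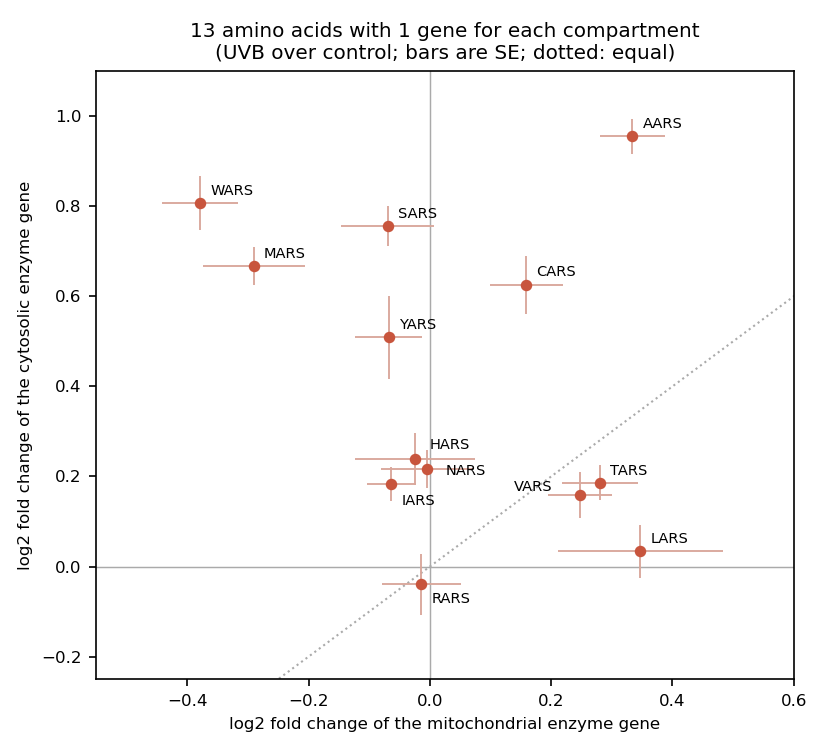
Log2 fold change, UVB over control, of the cytosolic gene against that of the mitochondrial gene for 13 amino acids, labelled by the cytosolic symbol, with standard errors on both axes. Points above the dotted line of equality, 9 of 13, have the higher value in the cytosolic gene.

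The genes around the synthetases in the ATF4 pathway were described from lists of textbook members. Of 6 eIF2 kinases and activators of GCN2, the kinase that senses uncharged tRNA, 2 were higher, against 17.0% of all genes tested. EIF2AK2, the kinase PKR of double-stranded RNA, rose by 0.38 log2 units, and GCN1 rose by 0.21. Neither call held in every alternative, and under some none of the 6 was called. Of 11 tested ATF4 pathway regulators 6 were higher and 1 lower, against 17.0% and 11.0% of all genes tested, with a median of 0.76. PPP1R15A, the phosphatase subunit GADD34 that reverses eIF2 phosphorylation, had 45.0 ± 0.992 FPKM after UVB and 15.0 ± 1.01 FPKM in controls (SD, n = 3 each), a log2 fold change of 1.52. DDIT3, CHAC1, which degrades glutathione, and CEBPB, a C/EBP factor, rose by 1.504, 1.43 and 0.98, and DDIT4, an inhibitor of mTORC1 signalling, fell by 0.23. ATF4 mRNA itself, with 116 ± 0.910 FPKM after UVB and 106 ± 6.65 FPKM in controls (SD, n = 3 each), had a log2 fold change of 0.13 and was not called (adjusted p = 0.114).

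Enzymes that make amino acids under ATF4 were higher in 9 of 11 tested genes, with a median log2 fold change of 0.74. ASNS, asparagine synthetase, had 29.7 ± 1.13 FPKM after UVB and 11.6 ± 0.967 FPKM in controls (SD, n = 3 each), a log2 fold change of 1.29. CTH, which makes cysteine, PSAT1, of the serine pathway, and MTHFD2, of mitochondrial folate metabolism, rose by 1.22, 1.05 and 0.91. Of 8 tested amino acid transporters under ATF4, 5 were higher, with a median of 0.32; SLC1A4, SLC6A9, SLC7A1 and SLC3A2 rose by 0.82, 0.64, 0.48 and 0.41. These counts stand beside the 17.0% of all genes tested that were higher.

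Steps next to charging were listed as well. Of 19 genes of tRNA export and nuclear processing 6 were higher and 1 lower, against 17.0% and 11.0% of all genes tested, with a median log2 fold change of 0.13. TSEN34, of the tRNA splicing endonuclease, RPP40, of RNase P, and XPOT, the tRNA exporter, rose by 0.49, 0.46 and 0.42, and RTCB, the tRNA ligase, fell by 0.35. Of 6 genes of the selenocysteine route 0 were higher and 1 was lower, against 17.0% and 11.0% of all genes tested. The lower one was EEFSEC, its elongation factor, by 0.64. Of 11 partners of mitochondrial charging 1 was higher and 1 lower, against the same 17.0% and 11.0%. PTCD1, which acts on mitochondrial leucine tRNAs, rose by 0.40, and GATB, of the enzyme that makes glutaminyl-tRNA in mitochondria, fell by 0.27. The list of mitochondrial translation factors also held tRNA processing proteins such as TRMT10C. Of its 11 tested genes 1 was higher and 3 lower, against 17.0% and 11.0% of all genes tested. TRMT10C fell by 0.30, the translation factors MTIF3 and MTRF1 fell by 0.26 and 0.24, and MTIF2 rose by 0.27.

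The substrates in mitochondria were listed too. Of 22 mitochondrial tRNA genes 16 were lower and 4 higher, against 11.0% and 17.0% of all genes tested, with a median log2 fold change of -0.67 and values of -1.83 for MT-TM, -1.75 for MT-TQ, -1.48 for MT-TV and -1.32 for MT-TH. MT-TA, MT-TC, MT-TN and MT-TY, which lie next to each other in the mitochondrial genome, were the 4 higher ones, with means of 1497, 3234, 3306 and 1738 FPKM after UVB and 767, 1833, 1748 and 1074 FPKM in controls. They hold most of the summed level of the 22 genes, which was 10200 to 11120 FPKM after UVB and 7112 to 7625 FPKM in controls. Some lower ones rest on few reads: MT-TQ had 6 to 18 per library after UVB and 31 to 58 in controls, and MT-TM 14 to 26 after UVB and 64 to 88 in controls. The genes are short and packed between longer transcripts, and how far their FPKM stand for mature tRNA was not tested.

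**Figure D5:**
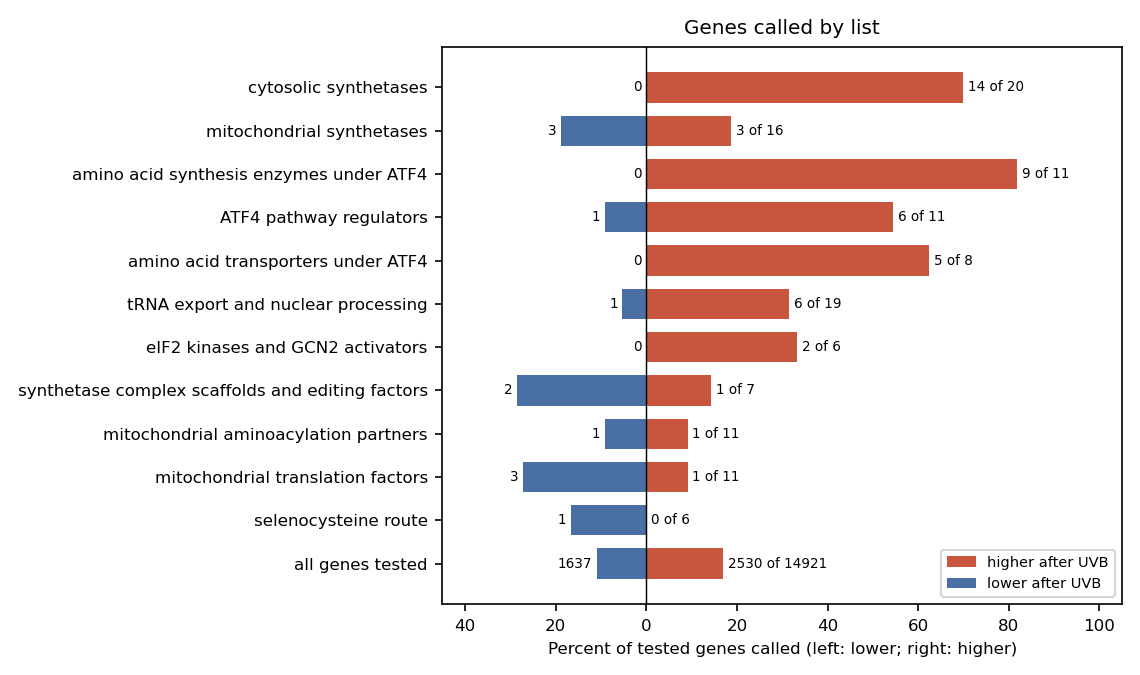
Percent of the tested genes of each list called higher (red, right) or lower (blue, left) after UVB, with the counts, beside all genes tested at the bottom. Of the cytosolic synthetases 14 of 20 were higher, of the mitochondrial ones 3 of 16, and of all genes tested 17.0%.

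Each cytosolic or mitochondrial gene rested on 365 reads or more in every library, the lowest being FARS2 after UVB and the highest AARS with 44693. Every UVB library lay above every control library in 20 of the 36 genes, against 27.6% of all genes tested, and below in 3, against 18.2%. At an adjusted p under 0.05 in the authors' deposited table, 8 of the 36 genes were higher (AARS, CARS, EPRS, MARS, SARS, WARS, YARS and AARS2) and 2 lower (FARS2 and WARS2). All 10 had the same call and direction here. The share of all genes called in the authors' table is not given here, so these counts have no background beside them. Sharing of sequence was small: at most 1.91% of the 50-base stretches in the transcripts of a synthetase gene, the value of AARS2, occurred in transcripts of genes elsewhere. Exons of 16 of the genes overlapped no other gene, and in 5 (MARS, WARS, HARS2, SARS2 and VARS2) the overlap exceeded 10% of exon bases.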

How the data were processed

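RNA-seq values of 6 HaCaT libraries, 3 UVB and 3 control, were used. HISAT2 2.0.5, StringTie, DESeq and build hg38 (GRCh38) appear, per the submitters' processing notes, without their roles; no source used here gives the counter, strand setting or annotation release. The authors deposited FPKM per gene and repeat copy, read counts of 74 repeat copies, and their own log2 fold changes and p-values. The authors' deposited test scores and mean signal (normalised counts) were not used. All 58735 gene identifiers are in GENCODE release 29. Reads recovered from the FPKM with those counts were whole in 100% of non-zero values (tolerance 0.01); that a unit is a read is not known.

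Genes averaging 0.5 FPKM or more were tested with limma 3.58.1 (eBayes, mean trend) in R 4.3.3 on log2(FPKM + 1), with Benjamini-Hochberg adjustment over all 14921 genes. The 14 alternatives were a pseudocount of 0.1, no filter, a filter of 1 FPKM, size factors, quantile normalization, edgeR 4.0.16 (quasi-likelihood, TMM; 1979 genes higher and 1979 lower) and DESeq2 1.42.0 on recovered reads, the replicate number as a block, and omission of each library in turn. Tests were checked on simulated data. Members and gene lists were chosen with earlier results of these data known. The text names every synthetase gene, with library values for those called and for their partners in a pair where 1 is called, and up to 4 called genes of each other list by size of change; some items are not reported here. Errors are SDs over 3 libraries or limma standard errors.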

Additional observations from a re-analysis of the deposited data

How the results depend on the processing

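Of the 20 called synthetase genes, 13 had the same call in all 14 alternatives (10 cytosolic and AARS2, FARS2 and WARS2), and the 7 others lost it in 4 to 8 of them. Across the alternatives 12 to 17 of the 36 genes were higher and 2 or 3 lower. Mitochondrial genes called higher fell to 1 under quantile normalization and were 1 to 4 when each library was left out. All genes called higher were 1629 to 2081 with a library left out, the lowest without UVB replicate 3. With edgeR 1979 genes were higher and 1979 lower, and with DESeq2 2404 and 2365. The log2 fold change of LARS, not called, was -0.0165 with size factors, -0.0378 with quantile normalization, -0.0177 with edgeR and -0.0185 with DESeq2. Among leave-one-out fits the sign also changed for genes not called: DARS (-0.0678 to 0.0318), RARS (-0.0873 to 0.0175), HARS2 (-0.0921 to 0.0789), NARS2 (-0.0669 to 0.0378), PARS2 (-0.0712 to 0.0066) and RARS2 (-0.0655 to 0.0205). Fewer samples enter those fits; the other causes were not tested. Same-numbered UVB and control libraries deviated together little (correlations of 0.048, 0.022 and 0.030), so the numbers were not taken as pairs; each library correlated best with its own number, a hint from the data only. With the number as a replicate block 15 synthetase genes were higher and 2 lower, and 1789 of all genes were higher and 1240 lower; HARS, IARS and MARS2 were then not called (adjusted p of 0.0595, 0.0521 and 0.108). Depth limits FARS2 most, at 365 reads in its lowest library.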
